A study of Homo sapiens with 26 samples.

Results

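The comparison described here sets A549 cells after 16 h with TGF-beta 1 (3 arrays) against untreated A549 cells (3 arrays), 6 of the 26 arrays of a time course. A549 is an established line from a human lung adenocarcinoma, and every array comes from it, so that all values describe a single line. Per the labels, the cultures of both groups went without serum for 24 h, the treated ones then received 5 ng/mL of porcine TGF-beta 1, and the whole experiment was run 3 times. The arrays were taken by their labels alone, and the platform was Affymetrix HG-U133 Plus 2.0, whose 54675 probe sets cover most human genes. The labels give no untreated culture kept for a further 16 h, so treatment and time in serum-free culture cannot be told apart.

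TGF-beta is a secreted cytokine that binds a pair of serine/threonine kinase receptors, TGFBR2 and TGFBR1. The receptors phosphorylate SMAD2 and SMAD3, which join SMAD4, enter the nucleus and act on target genes together with partners such as AP-1. In epithelial cells TGF-beta is known to halt division in G1, to loosen cell junctions and to start an epithelial-mesenchymal transition, in which cells take up a matrix-producing, contractile state.

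Levels below are log2 of the authors' deposited values, with zero signal at 6.64, the floor at 5.64 and the median probe set of every array at 7.96. The offset in these values shrinks the fold changes of weakly expressed genes, and no fold is given where a group's mean lay under the array median. Changes are given as log2 differences ± the moderated standard error (n = 3 per group), and a gene was called at an adjusted p under 0.05 over all 14771 genes tested. Probe sets detected per array numbered 30642 to 32291 at 16 h and 29966 to 31904 in untreated cells. Actin's 3'/5' signal ratio, a measure of RNA integrity, was 0.995 to 1.04 at 16 h and 1.07 to 1.13 in untreated cells, so the groups did not overlap, and its part in the results was not tested. Correlations between arrays were 0.978 to 0.986 within the 16 h group, 0.959 to 0.978 within the untreated group and 0.897 to 0.918 between them. The untreated arrays spread widely in cell division genes, with replicate 1 highest and replicate 2 lowest. Genes named by rule whose call was lost without 1 of them are marked below. Further genes given from the lists were not examined in this way.

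Of the markers of the line's lineage, the keratins KRT8 and KRT18 of simple epithelium were at high levels in both groups (means of 14.57 and 15.21 in untreated cells, 14.68 and 15.23 at 16 h). EPCAM and CDH1 were present as well, and both were lower at 16 h. EPCAM went from 11.16 to 10.28 (limma, adjusted p = 0.0213), and CDH1 is described below. KRT7 rose from 13.57 to 14.42 (adjusted p = 1.53e-04). KRT19 was near zero signal, at 6.81 and 6.19. Of 7 measured alveolar type II markers, SFTPB, SFTPD, LAMP3 and NKX2-1 stayed under the array median in both groups, while SFTPC (8.28 and 8.17), ABCA3 (8.35 and 8.38) and NAPSA (8.36 and 8.11) lay just above it, and together they gave a difference signal of 663 to 910 in untreated cells and 682 to 737 at 16 h. Fibroblast markers that define the type (PDGFRA, DCN, LUM, DPT, COL6A3, TCF21) had group means under the array median in both groups, 0 of 6 above it, with a summed signal of 275 to 556 untreated and 297 to 423 at 16 h. For 6 endothelial markers, of which 3 in untreated cells and 1 at 16 h had a mean above the array median, the sums were 486 to 752 and 386 to 614. For 8 leukocyte and blood markers, 3 and 4 of them above it, the sums were 860 to 1895 and 1032 to 1424.

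After 16 h, 4975 genes (33.7% of those tested) had changed, 2242 (15.2%) higher and 2733 (18.5%) lower than in untreated cells. The shares of 15.2% and 18.5% are the background for the counts of gene lists below. At least 2-fold changes were seen for 734 genes upward (4.97%) and 751 downward (5.08%). The arrays of the 2 groups did not overlap for 19% of genes upward and 22.1% downward. The median change over all genes was -0.043, with quartiles at -0.322 and 0.235, and the median standard error was 0.167. The authors' deposited table selects 2711 probe sets at 16 h, 1496 higher and 1215 lower.

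The 12 largest rises among called genes whose arrays did not overlap included the cytokine IL11, the IGF-related proteins IGFL1, IGFBP5 and IGFBP7, and the collagen chains COL4A1 and COL5A1. IL11 read 7.38, 6.92 and 7.19 on the untreated arrays and 13.37, 13.37 and 13.08 at 16 h. IL11, a relative of IL-6 known for fibrotic signalling, thus lay near zero signal in every untreated array and far above it in every treated one, a change of 6.11 ± 0.46 (adjusted p = 1.37e-09), and its other probe set was called at 1.97. IGFL1 read 7.21, 7.29 and 7.37 on the untreated arrays and 13.55, 13.58 and 12.43 at 16 h, a change of 5.90 ± 0.44 in this secreted IGF-like protein. IGFBP5 read 7.18, 9.15 and 7.04 on the untreated arrays and 13.73, 13.65 and 13.59 at 16 h, with untreated replicate 2 above the other two and still far below all treated arrays. The change in this binding protein of insulin-like growth factors was 5.86 ± 0.58, and that of IGFBP7, another IGF-binding protein family member, 5.05 ± 0.52. The 5 other IGFBP5 probe sets were called with smaller changes, 1.71 to 2.37.

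MAF, a basic leucine zipper transcription factor, changed by 5.61 ± 0.57, and ANGPTL4, a secreted inhibitor of lipoprotein lipase, by 5.44 ± 0.51. The 3 other MAF probe sets were called at 1.3 to 3.12, and the other of ANGPTL4 at 5.67. COL4A1, a chain of basement membrane collagen IV, rose by 4.998 ± 0.43, and COL5A1, a fibrillar collagen chain, by 4.82 ± 0.50. CCDC80, a secreted matrix-associated protein, rose by 4.68 ± 0.47 and RASGRP1, an activator of RAS, by 4.52 ± 0.41.

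The 12 largest falls, chosen in the same way, included the chemokine CCL20, the fibrinogen chains FGA and FGB and the epithelial factor EHF. CCL20, a chemokine that attracts dendritic cells and lymphocytes, read 11.38, 10.70 and 12.08 in untreated cells, and all 3 arrays at 16 h were at the floor of 5.64. No fold is given because the floor hides the treated level (adjusted p = 1.20e-06). TM4SF20 read 13.57, 14.53 and 14.31 on the untreated arrays and 8.96, 8.67 and 9.55 at 16 h. This transmembrane protein fell by 5.08 ± 0.45 on the log2 scale, 33.8-fold. INHBB read 12.06, 12.38 and 11.95 on the untreated arrays and 7.64, 7.37 and 7.56 at 16 h, a change of -4.61 ± 0.36 in the beta B subunit of activins and inhibins. FGB read 12.06, 12.45 and 12.70 on the untreated arrays and 7.86, 7.82 and 7.79 at 16 h, and the fibrinogen beta chain thus ended below the array median on all 3 treated arrays (-4.58 ± 0.48).

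EHF, an ETS factor of epithelial cells, went from 12.03, 12.57 and 12.56 to 7.79, 7.90 and 7.93, also under the array median (-4.51 ± 0.38). Changes in the other falls were -4.43 ± 0.52 for IGFBP1, an IGF-binding protein of liver and decidua, -4.33 ± 0.45 for the fibrinogen alpha chain FGA, and -4.30 ± 0.49 for the receptor tyrosine kinase KIT. SLC7A2, a carrier of cationic amino acids, fell by 4.23 ± 0.32, and its other probe set was called at -1.74. The alcohol dehydrogenase ADH6 changed by -3.90 ± 0.63 with untreated arrays that spread from 9.34 to 12.19, and SLC51B, a subunit of a bile acid and steroid exporter, by -3.85 ± 0.36. DDC, the decarboxylase that makes dopamine and serotonin, changed by -3.85 ± 0.26, and its other probe set was called at -1.88.

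**Figure D1:**
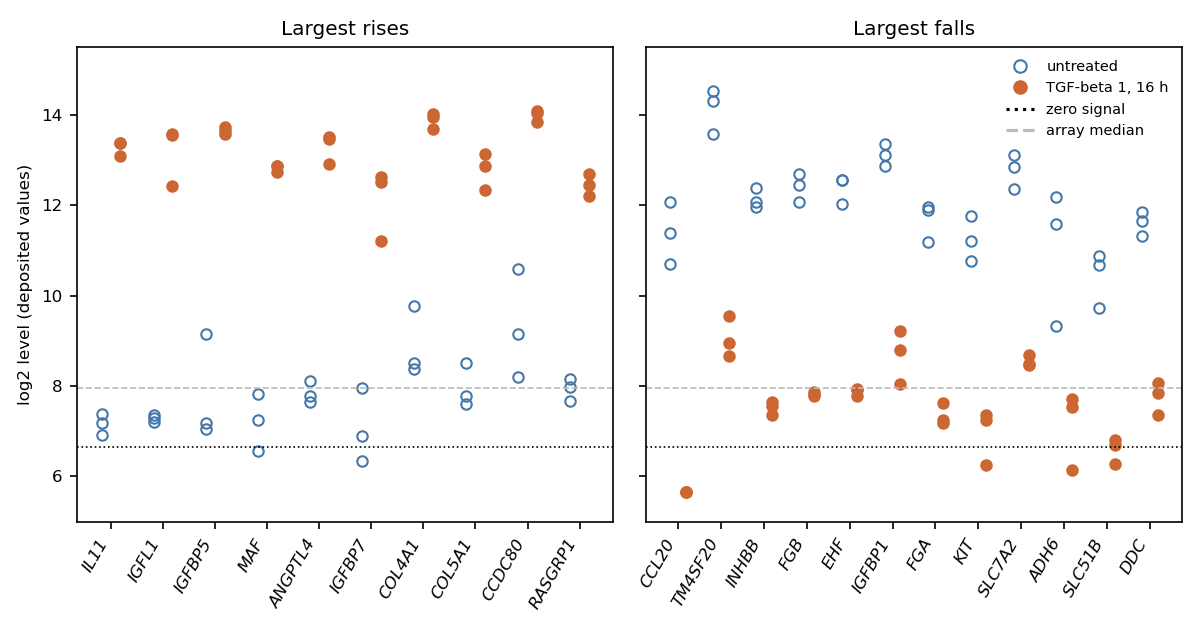
Log2 levels on each array (vertical axis, deposited values) for genes among the 12 largest rises (left) and the 12 largest falls (right) at 16 h, with open circles for the 3 untreated and filled circles for the 3 treated arrays. The groups do not overlap for any of these genes, and all treated arrays of CCL20 lie at 5.64, the floor of the scale.

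Among 28 tested genes of SMAD feedback and direct TGF-beta response, 21 rose (75%), 0 fell and 7 did not pass. Their median change was 1.61, against -0.043 over all genes. SMAD7 read 9.82, 9.27 and 9.25 on the untreated arrays and 11.94, 11.84 and 11.92 at 16 h. SMAD7, the inhibitory SMAD that blocks the receptor, was 5.48-fold higher (2.45 ± 0.38, adjusted p = 2.33e-05) with no overlap. SKIL, a corepressor that binds SMADs, rose by 2.30 ± 0.30 from 10.32, 10.12 and 10.11 to 12.63, 12.48 and 12.34. JUNB, an AP-1 subunit, rose by 3.02 ± 0.23, CCN1, a matricellular protein, by 3.10 ± 0.31, and LTBP2, a latent TGF-beta binding protein family member, by 3.03 ± 0.29. The ubiquitin ligase SMURF2, which removes receptors and SMADs, changed by 2.34 ± 0.21, and PMEPA1, which holds back SMAD2 and SMAD3, by 2.90 ± 0.36.

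Of 37 ligands, receptors, SMADs and antagonists of the family, 15 rose (40.5%) and 6 fell (16.2%), beside 15.2% and 18.5% of all genes tested, with a median of 0.15. Ligands moved in both directions. TGFB1 read 8.97, 7.37 and 7.86 on the untreated arrays and 9.91, 9.95 and 9.73 at 16 h, a rise of 1.80 ± 0.29, while TGFB2, a second isoform, fell by 1.15 ± 0.19. INHBA, the beta A activin subunit, changed by 1.85 ± 0.43, opposite to INHBB above. BMP2 read 8.62, 9.20 and 9.21 on the untreated arrays and 11.61, 11.54 and 11.996 at 16 h. The rise of this bone morphogenetic protein was 2.70 ± 0.28, whereas BMP4 changed by -0.96 ± 0.21. The receptors also differed in direction. TGFBR1 rose by 1.53 ± 0.21 and TGFBR2 fell by 0.95 ± 0.24, each without overlap between groups, and TGFBR3, the coreceptor betaglycan, changed by -1.37 ± 0.25. Among antagonists, noggin (NOG), which traps bone morphogenetic proteins, rose by 2.59 ± 0.25. FST read 7.99, 8.80 and 8.41 on the untreated arrays and 11.46, 11.57 and 13.53 at 16 h, so that replicate 3 of the treated group stood well above the other treated arrays. Follistatin, the activin-binding protein that FST encodes, rose by 3.79 ± 0.62.

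The transcription factors known for epithelial-mesenchymal transition did not move as a block. Of 12 tested, 7 rose (58.3%) and 1 fell (8.3%), beside 15.2% and 18.5% of all genes (median 0.76). SNAI2 read 7.59, 7.89 and 7.02 on the untreated arrays and 10.73, 10.42 and 10.43 at 16 h. SNAI2, a zinc finger repressor of E-cadherin, rose by 3.02 ± 0.34 (adjusted p = 4.01e-07). SNAI1, its paralog, read 7.48, 8.10 and 8.03 and 8.52, 8.76 and 7.93, with overlap between the groups and a change of 0.53 ± 0.27 (adjusted p = 0.134). ZEB1, another E-cadherin repressor, changed by 0.70 ± 0.28 (adjusted p = 0.0574), though all treated arrays lay above all untreated ones. With the experiment number as a block in limma, both passed (adjusted p = 0.0323 for SNAI1 and 4.07e-04 for ZEB1), as with the exchanged block described below. ZEB1 also passed with the mean of its probe sets (0.00305) and with only the untreated and 16 h arrays in the fit (0.0404). Without untreated replicate 3 ZEB1 passed (0.0442), and without treated replicate 3 SNAI1 did (0.0425). Under the other alternatives neither passed. HMGA2, a chromatin protein, rose by 2.25 ± 0.29 and the ETS factor ETS1 by 1.72 ± 0.29. TWIST2 was the member that fell, by 1.83 ± 0.19, but a second probe set of this gene changed by -0.09 and was not called.

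CDH1, the epithelial adhesion protein E-cadherin, read 13.10, 13.09 and 13.09 on the untreated arrays and 11.24, 10.88 and 10.64 at 16 h. The untreated arrays thus lay within a narrow range, and the fall to well below it was -2.17 ± 0.17, or 4.51-fold (adjusted p = 1.77e-09). CDH2 read 8.62, 7.29 and 7.83 on the untreated arrays and 10.74, 10.63 and 11.05 at 16 h. N-cadherin, which CDH2 encodes and which mesenchymal cells carry, rose by 2.89 ± 0.27. Of 36 junction and keratin genes, 12 rose (33.3%) and 13 fell (36.1%), beside 15.2% and 18.5% of all genes, with a median of 0.02. The falls included CLDN2, a pore-forming claudin (-2.03 ± 0.53), the junction scaffold TJP3 (-2.03 ± 0.20) and CLDN7 (-1.57 ± 0.26). For CLDN2 the treated arrays read 9.89, 10.50 and 12.51, with replicate 3 close to the untreated arrays at 12.78, 13.08 and 13.13. Rises included CLDN4, a barrier claudin (2.21 ± 0.23), the keratin KRT80 (2.40 ± 0.31) and the desmosomal cadherin DSC2 (1.87 ± 0.25). Among 23 epithelial and lung lineage transcription factors, 9 fell (39.1%) and 2 rose (8.7%), beside 18.5% and 15.2% of all genes. The rises were KLF4 and TP63, by 0.76 and 0.70, and the median was -0.29. SOX2 read 11.92, 12.19 and 12.09 on the untreated arrays and 7.98, 7.96 and 9.71 at 16 h. This factor of airway epithelium fell by 3.51 ± 0.58, although one of its other probe sets, at 0.01, was not called. CEBPD fell by 3.05 ± 0.34 and the epithelial ETS factor ELF3 by 2.75 ± 0.35. The 2 other CEBPD probe sets were called at -1.04 and -1.01.

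**Figure D2:**
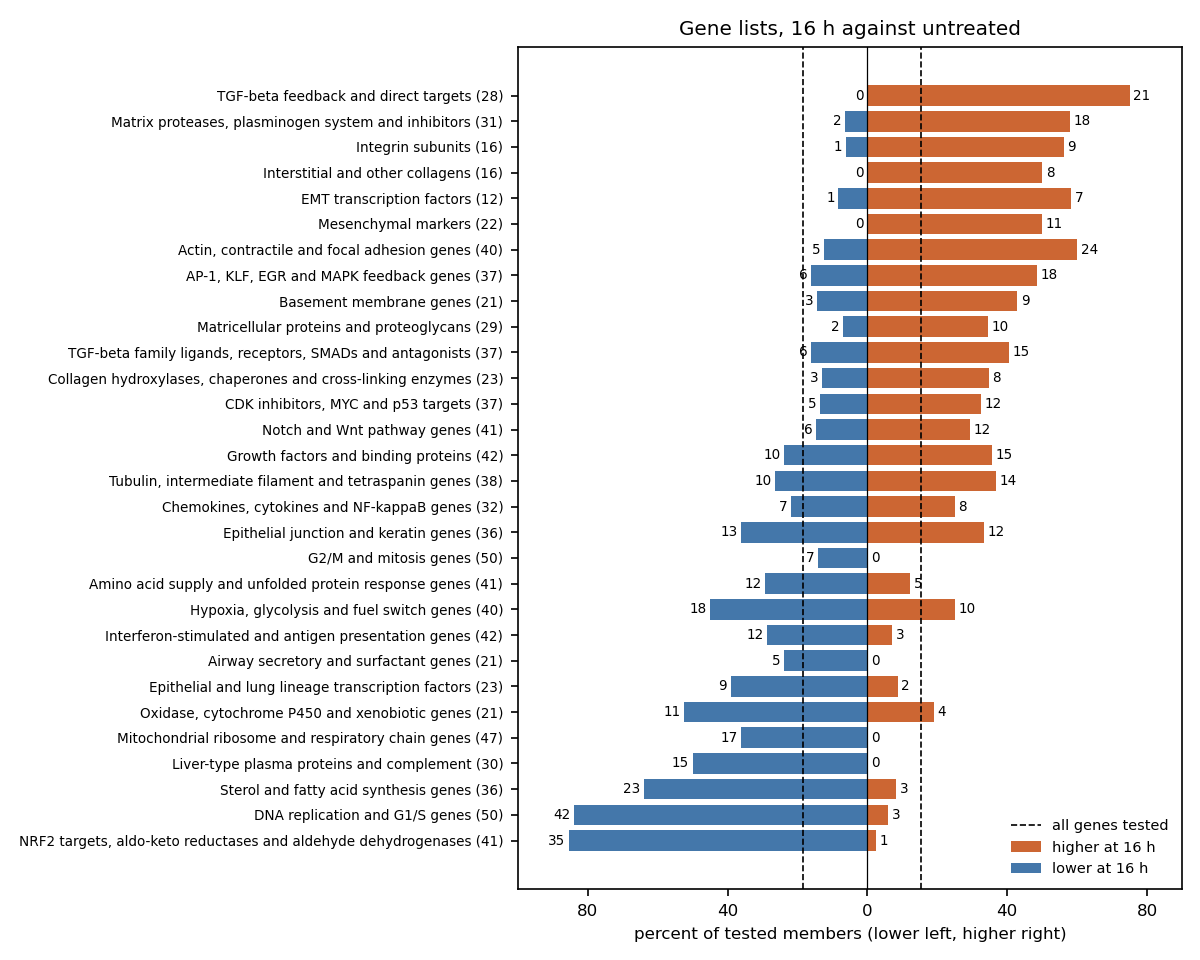
Percent of the tested members of each of 30 gene lists that passed the threshold at 16 h, higher to the right and lower to the left (horizontal axis), with the number of genes at each bar and the number tested in brackets. Dashed lines mark 15.2% higher and 18.5% lower over all genes tested, and the lists range from 21 higher and 0 lower of 28 feedback genes to 1 higher and 35 lower of 41 genes of the NRF2 list.

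Mesenchymal markers rose in 11 of 22 cases (50%) and fell in 0, beside 15.2% and 18.5% of all genes, with a median of 0.91. VIM read 14.43, 13.65 and 13.79 on the untreated arrays and 14.79, 14.76 and 14.81 at 16 h. Vimentin, a mesenchymal intermediate filament, was already high in untreated A549 cells and changed by 0.83 ± 0.14, 1.77-fold. Fibronectin (FN1) read 12.40, 13.85 and 12.92 and 14.15, 14.05 and 13.93, a rise of 0.99 ± 0.26 (adjusted p = 0.00536) that missed the threshold without untreated replicate 1 (0.66, adjusted p = 0.0544). TAGLN read 8.01, 7.57 and 7.72 on the untreated arrays and 12.51, 12.25 and 11.34 at 16 h, a rise of 4.27 ± 0.42 in this actin-binding protein of smooth muscle, although one of its other probe sets, at -0.12, was not called. TNC, the matricellular protein tenascin C, rose by 2.69 ± 0.34. ACTA2, the smooth muscle actin often used as a myofibroblast marker, read 10.82, 10.95 and 10.66 and 10.79, 10.95 and 11.16, and its change of 0.16 ± 0.16 did not pass (adjusted p = 0.488).

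Of 16 interstitial and other collagens, 8 rose (50%) and 0 fell (median 0.77), beside 15.2% and 18.5% of all genes tested. COL1A1 read 9.21, 9.18 and 9.26 on the untreated arrays and 13.47, 13.52 and 13.36 at 16 h. This chain of type I collagen changed 18.9-fold (4.24 ± 0.42, adjusted p = 5.58e-08) with tight replicates in both groups, but 2 of its 4 other probe sets were not called. COL22A1 and COL7A1, the latter the collagen of anchoring fibrils, rose by 2.01 ± 0.34 and 1.92 ± 0.21. Of 21 basement membrane genes, 9 rose (42.9%) and 3 fell (14.3%; COL4A6, LAMA4 and NID2), with a median of 0.15. COL4A2, the partner chain of COL4A1, rose by 4.28 ± 0.49 and the laminin chain LAMC1 by 1.22 ± 0.11. Among 29 matricellular proteins and proteoglycans, 10 rose (34.5%) and 2 fell (6.9%; FBLN5 and SRGN), with a median of 0.066, near that of all genes. THBS1 read 9.40, 8.56 and 8.82 on the untreated arrays and 13.31, 13.10 and 13.60 at 16 h, a rise of 4.41 ± 0.35 in thrombospondin 1, an activator of latent TGF-beta. GPC6, a membrane heparan sulphate proteoglycan, rose by 2.41 ± 0.31.

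Enzymes that modify and cross-link collagen followed with 8 rises (34.8%) and 3 falls (13%) of 23 tested, beside 15.2% and 18.5% of all genes. The falls were P4HB, LOXL4 and PCOLCE2. P4HA3 and P4HA2, catalytic subunits of prolyl 4-hydroxylase, rose by 2.87 ± 0.34 and 1.57 ± 0.11, lysyl oxidase (LOX) by 2.20 ± 0.28 and the procollagen C-proteinase BMP1 by 1.60 ± 0.17. Of 31 matrix proteases and plasminogen system genes, 18 rose (58.1%) and 2 fell (6.5%), beside 15.2% and 18.5% of all genes. MMP7 and CTSD were those that fell, and the median was 0.87. MMP10 read 6.90, 6.81 and 6.23 on the untreated arrays and 9.86, 10.09 and 11.67 at 16 h. Stromelysin 2, which MMP10 encodes, rose by 3.90 ± 0.40, with untreated arrays about zero signal and treated replicate 3 above the other two. The gelatinases MMP2 and MMP9 rose by 2.05 ± 0.29 and 1.94 ± 0.23. TIMP3, a matrix-bound metalloproteinase inhibitor, rose by 3.16 ± 0.36, and the urokinase PLAU and its receptor PLAUR by 2.57 ± 0.27 and 2.22 ± 0.20. The metalloproteinase ADAM19 rose by 4.05 ± 0.27 on its main probe set, while another changed by 0.04 and was not called.

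Integrins, the receptors that tie cells to matrix, rose in 9 of 16 cases (56.2%) and fell in 1 (6.2%, ITGB5), with a median of 0.63. Over all genes, 15.2% rose and 18.5% fell. ITGA2 read 9.93, 9.87 and 10.02 on the untreated arrays and 13.11, 12.88 and 12.61 at 16 h. The rise of this subunit of a collagen receptor was 2.93 ± 0.22, 7.59-fold. ITGA11, also part of a collagen receptor, rose by 2.72 ± 0.24. ITGB4, the partner of ITGA6 in laminin-binding hemidesmosomes, rose by 2.21 ± 0.20, and ITGB6, whose dimer with ITGAV activates latent TGF-beta, by 1.99 ± 0.28.

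Actin, contractile and focal adhesion genes rose in 24 of 40 cases (60%) and fell in 5 (12.5%), with a median of 0.70. Over all genes, 15.2% rose and 18.5% fell. MYOCD read 7.95, 8.51 and 8.37 on the untreated arrays and 12.72, 12.56 and 12.36 at 16 h. Myocardin, which MYOCD encodes, is a coactivator of serum response factor (SRF) in smooth muscle, and it rose 19.3-fold (4.27 ± 0.58). The focal adhesion protein TNS4 rose by 3.89 ± 0.39, and MRTFA and SRF, a further coactivator and the factor itself, by 1.36 ± 0.20 and 0.64 ± 0.15. Not all contractile genes went up. MYLK, the kinase of smooth muscle myosin light chain, read 10.94, 10.86 and 10.87 and then 8.31, 8.45 and 8.04, a fall of 2.62 ± 0.21, while another of its probe sets changed by 0.49 and was not called.

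SRF binds the CArG box, a core of A and T between CC and GG. Promoter windows from RefSeq (GRCh38.p14, 250 bases before to 50 after the start of a gene) were available for 19 of the 24 higher genes of this class. Of these windows 5 (26.3%) held the box, against 1.12% of 11375 genes tested with a window and 1.29% of all 27305 windows. Among all higher genes the share was 1.37%, and among genes at least 4-fold higher 0.641%. Windows of members of the class that were not higher were not counted. The following stretches show where the box lies, in capitals, in the higher genes TPM4, FLNA and ACTG2 and in MYLK, which fell. These genes were chosen after their values were seen. The boxes of ACTG2 begin 110 and 73 bases before the start of the window's transcript, that of TPM4 173 bases, and those of FLNA and MYLK 94 bases. A gene can have further starts, and only the first window listed was used. Whether the MYLK window belongs to a transcript of the kinase that its probe set measures was not examined.
TPM4 (chr19:16067343-16067402, plus strand): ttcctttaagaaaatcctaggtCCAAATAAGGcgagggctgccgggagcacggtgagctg
FLNA (chrX:154374700-154374754, minus strand): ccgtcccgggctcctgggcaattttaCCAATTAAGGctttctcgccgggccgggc
ACTG2 (chr2:73892883-73892957, plus strand): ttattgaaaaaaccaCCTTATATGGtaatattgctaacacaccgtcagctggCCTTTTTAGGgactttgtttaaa
MYLK (chr3:123620614-123620668, minus strand): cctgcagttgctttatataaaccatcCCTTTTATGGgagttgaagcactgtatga
TPM4 read 11.43, 10.38 and 10.97 on the untreated arrays and 12.59, 12.24 and 12.13 at 16 h (1.40 ± 0.26), and tropomyosin 4 stabilises actin filaments. The actin cross-linker filamin A (FLNA) changed by 1.54 ± 0.23, and ACTG2 read 8.50, 7.69 and 8.04 on the untreated arrays and 8.41, 9.42 and 8.94 at 16 h (0.85 ± 0.27), where treated replicate 1 lay within the range of the untreated arrays. A match shows no binding.

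Among 37 AP-1, KLF, EGR and MAPK feedback genes, 18 rose (48.6%) and 6 fell (16.2%), beside 15.2% and 18.5% of all genes (median 0.56). JUN read 9.13, 9.69 and 9.67 on the untreated arrays and 13.35, 13.21 and 13.28 at 16 h. JUN, the central AP-1 subunit, was 13.7-fold higher (3.78 ± 0.23, adjusted p = 1.36e-10), while its partner FOS read 9.65, 10.33 and 10.39 and 7.51, 7.11 and 8.51 and fell by 2.41 ± 0.38. The AP-1 letters TGANTCA, which read the same on both strands and can share bases with an antioxidant response element (TGACNNNGC), were found in 13.5% of 156 windows of genes at least 4-fold higher. Their share was 4.94% over all genes tested with a window, 6.15% of all higher genes, 4.14% of lower genes and 7.76% of all windows in the table. IL11 and CLDN4 are shown because both rose and hold the letters, in capitals, and they were chosen after their values were seen.
IL11 (chr19:55370529-55370588, minus strand): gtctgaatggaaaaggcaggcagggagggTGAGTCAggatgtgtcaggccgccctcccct
CLDN4 (chr7:73830746-73830845, plus strand): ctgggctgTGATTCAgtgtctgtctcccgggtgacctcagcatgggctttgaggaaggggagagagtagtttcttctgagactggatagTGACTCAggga
In IL11 the letters begin 96 bases before the start and in CLDN4 242 and 161 bases before it. CLDN4 read 8.41, 8.10 and 8.25 on the untreated arrays and 10.78, 10.61 and 10.01 at 16 h, which placed all treated arrays above all untreated ones.

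Of 32 chemokines, cytokines and NF-kappaB genes, 8 rose (25%) and 7 fell (21.9%), the latter near the 18.5% of all genes and the former beside 15.2% (median -0.04). CXCL5 read 12.97, 13.13 and 13.05 on the untreated arrays and 9.40, 8.75 and 9.76 at 16 h. CXCL5, which attracts neutrophils, fell by 3.75 ± 0.23, and CXCL16, a membrane-bound chemokine, by 3.14 ± 0.28. The 2 other CXCL5 probe sets were called at -2.08 and -1.76. CXCL3 and CXCL1, also neutrophil chemokines, changed by -2.63 ± 0.39 and -1.76 ± 0.34, whereas CCL2, which attracts monocytes, rose by 2.12 ± 0.38 and IL32 by 2.94 ± 0.34. Of 42 growth factors and binding proteins, 15 rose (35.7%) and 10 fell (23.8%). PDGFB and FGF1, mitogens of mesenchymal cells, rose by 3.02 ± 0.37 and 3.02 ± 0.40. In the ERBB family, EGFR rose by 2.25 ± 0.16 while ERBB3 changed by -1.93 ± 0.15, and among its ligands HBEGF rose by 1.79 ± 0.27 while EREG changed by -1.79 ± 0.28. KITLG, the ligand of KIT, fell together with its receptor (-2.63 ± 0.25).

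Of 41 Notch and Wnt genes, 12 rose (29.3%) and 6 fell (14.6%), beside 15.2% and 18.5% of all genes tested. JAG1, a Notch ligand, and HES1, a Notch target, rose by 1.24 ± 0.13 and 1.38 ± 0.48. LFNG, which glycosylates Notch receptors, rose by 2.01 ± 0.35, although its other probe set, at 0.60, was not called. The falls included feedback genes and a receptor of Wnt signalling. AXIN2 changed by -1.74 ± 0.33, the ubiquitin ligases RNF43 and ZNRF3, which remove Wnt receptors, by -1.71 ± 0.30 and -0.73 ± 0.17, and LGR4 by -1.27 ± 0.20. Among Wnt ligands, WNT7A rose by 1.64 ± 0.34.

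A549 cells express a set of genes best known from liver. At 16 h, 15 of 30 liver-type plasma protein and complement genes had fallen (50%) and 0 had risen (median -0.96). Over all genes, 18.5% fell and 15.2% rose. FGG, the gamma chain of fibrinogen, read 10.69, 11.67 and 11.83 and 7.73, 7.77 and 7.68, and fell by 3.67 ± 0.42. The fibrinogen chains FGA, FGB and FGG thus ended under the array median. CP read 13.58, 14.24 and 14.17 on the untreated arrays and 11.49, 11.03 and 11.68 at 16 h. Ceruloplasmin, a copper-carrying ferroxidase, fell by 2.60 ± 0.30. CFB, a complement protease, read 10.16, 11.99 and 11.81 and 10.33, 10.43 and 10.25, with overlap through untreated replicate 1. Its change of -0.98 ± 0.32 (adjusted p = 0.019) was not called without untreated replicate 2 (-0.65), untreated replicate 3 (-0.74) or treated replicate 3 (-0.94), and its other probe set, at -0.19, was not called. In 21 airway secretory and surfactant genes, 5 fell (23.8%, beside 18.5% of all genes) and 0 rose. Their mean level was 9.61, 10.24 and 10.32 on the untreated arrays and 9.64, 9.60 and 9.43 at 16 h, so that untreated replicate 1 lay within the range of the treated arrays. AGR2 read 14.76, 14.84 and 14.92 on the untreated arrays and 12.52, 12.44 and 12.01 at 16 h, and this disulphide isomerase needed for mucin folding fell by 2.52 ± 0.30. Its other probe set was called with a larger fall, at -5.67. MUC1, a surface mucin, changed by -1.70 ± 0.24, and MUC13, a membrane mucin, fell by 1.70 ± 0.42. PI3, the elastase inhibitor elafin, changed by -1.30 ± 0.33 with overlapping arrays. With only the untreated and 16 h arrays in the fit, CFB and PI3 missed the threshold (adjusted p = 0.12 and 0.0515).

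Genes of the NRF2 antioxidant response, aldo-keto reductases and aldehyde dehydrogenases fell in 35 of 41 cases (85.4%), beside 18.5% of all genes tested, and 1 rose (ALDH1A3, by 0.98 ± 0.19). The median was -0.80. A549 cells are known for a mutated KEAP1 and constantly active NRF2, the factor that NFE2L2 encodes. NFE2L2 read 13.47, 13.63 and 13.60 on the untreated arrays and 12.84, 12.63 and 12.86 at 16 h, a fall of 0.79 ± 0.13. GCLM read 12.95, 13.15 and 12.98 on the untreated arrays and 10.58, 10.80 and 10.74 at 16 h. GCLM and GCLC form the enzyme that limits glutathione synthesis, and they fell by 2.32 ± 0.15 and 1.95 ± 0.13. TXNRD1, thioredoxin reductase, read 14.60, 14.59 and 14.60 and 13.35, 13.25 and 13.36, a fall of 1.28 ± 0.08 with close replicates. NQO1, a quinone reductase near the top of the scale, changed by -0.48 ± 0.04.

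ABCC2, an exporter of glutathione conjugates, fell by 3.08 ± 0.35. AKR1C2 read 12.45, 13.33 and 12.74 on the untreated arrays and 9.86, 9.71 and 10.12 at 16 h. This steroid-reducing enzyme fell by 2.95 ± 0.28 on 1 probe set, while its 4 others were called with smaller falls, -1.55 to -0.28. Its near-identical paralogs AKR1C1 and AKR1C3 changed by -0.32 ± 0.05 and -0.22 ± 0.05. Cross-hybridization could blur all these values. ALDH3A1 read 14.35, 14.10 and 14.14 on the untreated arrays and 12.50, 12.17 and 11.31 at 16 h, and this aldehyde dehydrogenase fell by 2.20 ± 0.26. Of 27 lower genes of the list with a promoter window, 7 (25.9%) held the letters TGACNNNGC of an antioxidant response element on either strand. The share was 14.8% of all genes tested with a window and 13.6% of all windows. Among all lower genes it was 16.4%, and among genes at least 4-fold lower 8.62%. In 21 oxidase, cytochrome P450 and xenobiotic genes, 11 fell (52.4%) and 4 rose (19%), beside 18.5% and 15.2% of all genes. The rises were NOX4, GPX1, GPX3 and GPX4. The fatty acid hydroxylases CYP4F3, CYP4F11 and CYP4F2 fell by 3.28 ± 0.25, 2.84 ± 0.23 and 2.93 ± 0.32, and as close paralogs they may share signal. CYP1B1, which oxidises oestrogens and polycyclic hydrocarbons, fell by 2.29 ± 0.31.

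Metabolic genes were split. Of 40 hypoxia, glycolysis and fuel switch genes, 10 rose (25%) and 18 fell (45%), beside 15.2% and 18.5% of all genes. The glucose carrier SLC2A3 read 10.65, 6.38 and 8.49 in untreated cells, a wide spread, and 12.35, 11.70 and 12.68 at 16 h (3.74 ± 0.64). SLC2A1, the main glucose carrier, rose by 1.13 ± 0.13, PFKFB3 and PFKFB4, which make an activator of glycolysis, by 1.47 ± 0.34 and 1.42 ± 0.16, and VEGFA by 1.77 ± 0.19. PDK4 read 11.28, 12.66 and 12.19 on the untreated arrays and 8.29, 8.07 and 8.30 at 16 h. This kinase, which closes the entry of pyruvate into mitochondria, fell by 3.82 ± 0.37. The carbonic anhydrase CA12 fell by 2.00 ± 0.12 and CA9, a classic hypoxia gene, changed by -1.45 ± 0.24.

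Of 36 sterol and fatty acid synthesis genes, 23 (63.9%) fell and 3 (8.3%) rose, beside 18.5% and 15.2% of all genes. The rises were ACLY, ELOVL5 and ACSL1, and the median was -0.78. DHCR7 read 11.97, 11.61 and 11.13 on the untreated arrays and 10.24, 10.13 and 9.61 at 16 h. DHCR7, a reductase late in cholesterol synthesis, fell by 1.58 ± 0.26. ELOVL6, a fatty acid elongase, fell by 1.56 ± 0.22, and the sterol-sensing regulator SREBF1 changed by -0.93 ± 0.20. The mean over the 36 genes was 11.83, 11.58 and 11.28 in untreated cells and 10.97, 10.80 and 10.66 at 16 h, so the groups did not overlap. Of 41 amino acid supply and unfolded protein response genes, 5 rose (12.2%) and 12 fell (29.3%), beside 15.2% and 18.5% of all genes. SLC7A1, a carrier of arginine, rose by 1.47 ± 0.18, while XBP1, a transcription factor of the unfolded protein response, changed by -1.47 ± 0.21 and SEC24D, a coat protein of vesicles leaving the endoplasmic reticulum, by -1.33 ± 0.19. CREB3L1 changed by -1.71 ± 0.28, with another probe set at 0.08 that was not called.

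DNA replication and G1/S genes fell in 42 of 50 cases (84%) and rose in 3 (6%), beside 18.5% and 15.2% of all genes, with a median of -1.25. The rises were CCND1, CDK6 and E2F3 (0.82, 1.08 and 0.46), of which cyclin D1 and CDK6 act together at the entry into the cycle. MCM2 read 12.19, 10.13 and 10.78 on the untreated arrays and 8.76, 8.42 and 8.32 at 16 h. MCM2, a subunit of the replicative helicase, fell by 2.53 ± 0.40, and its untreated replicate 1 was the highest of the 6 arrays while untreated replicate 2 was still above all treated ones. CDC6, which loads the helicase, fell by 2.14 ± 0.29, the thymidine kinase TK1 by 2.23 ± 0.56, and cyclin E2 (CCNE2) by 1.82 ± 0.26. GINS2, also of the helicase, fell by 2.47 ± 0.37, though another probe set, at 0.01, was not called. The mean over the 50 genes was 11.26, 10.09 and 10.48 on the untreated arrays and 9.48, 9.43 and 9.34 at 16 h. Treated arrays lay close together and below all untreated arrays, and without untreated replicate 1 the count of falls was 31 and the median -0.95.

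E2F factors act on many of these genes. Of 37 lower G1/S genes with a promoter window, 14 (37.8%) held the E2F letters TTTNGCGC on either strand, beside 2.88% of genes tested, 4.09% of lower genes and 1.83% of all windows. Matches on opposite strands can overlap, as in MCM6 and E2F2 below, where one place is matched on both. MCM6, POLE2 and E2F2 are shown, chosen after their values were seen, with the letters in capitals.
MCM6 (chr2:135876519-135876608, minus strand): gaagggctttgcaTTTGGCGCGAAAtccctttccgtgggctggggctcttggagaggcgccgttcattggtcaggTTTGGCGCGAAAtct
POLE2 (chr14:49688215-49688309, minus strand): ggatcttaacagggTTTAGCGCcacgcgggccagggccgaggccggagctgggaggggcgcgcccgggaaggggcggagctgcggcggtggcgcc
E2F2 (chr1:23531239-23531298, minus strand): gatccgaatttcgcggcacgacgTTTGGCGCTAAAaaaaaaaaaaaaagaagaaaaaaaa
The helicase subunit MCM6 read 13.02, 11.76 and 12.19 in untreated cells and 10.47, 10.24 and 10.17 at 16 h (-2.03 ± 0.26). POLE2, a subunit of DNA polymerase epsilon, changed by -2.12 ± 0.30, and the activator E2F2 itself by -1.46 ± 0.36. The groups did not overlap for any of these genes.

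G2/M and mitosis genes gave a less certain picture. Of 50 tested, 7 fell (14%, beside 18.5% of all genes), 0 rose and 43 did not pass, although the median was -0.75. With the experiment number as a block 17 fell. PBK read 12.88, 11.05 and 11.98 on the untreated arrays and 10.38, 10.11 and 9.46 at 16 h, and this mitotic kinase fell by 1.99 ± 0.45. MELK read 12.40, 10.14 and 11.47 on the untreated arrays and 10.49, 9.81 and 8.997 at 16 h, so that untreated replicate 2 lay among the treated arrays. Its change of -1.57 ± 0.60 (adjusted p = 0.046) and that of the condensin subunit NCAPH, -1.62 ± 0.63 (adjusted p = 0.05), were lost without untreated replicate 1 (adjusted p of 0.234 and 0.239), untreated replicate 3 (0.103 and 0.0993), treated replicate 2 (0.089 and 0.0527) or treated replicate 3 (0.185 and 0.249). When limma was fitted to the 6 arrays alone, their adjusted p was 0.0681 and 0.0797. ECT2, a cytokinesis factor, fell by 1.56 ± 0.28, and CDK1, the mitotic kinase of cyclin B, changed by -1.29 ± 0.46. The mean over the 50 genes was 11.90, 9.98 and 11.15 on the untreated arrays and 10.62, 10.33 and 9.49 at 16 h. The groups overlapped, with untreated replicate 2 below treated replicates 1 and 2. The count of falls was 3 without untreated replicate 1, 21 without untreated replicate 2 and 4 without untreated replicate 3, treated replicate 2 or treated replicate 3.

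**Figure D3:**
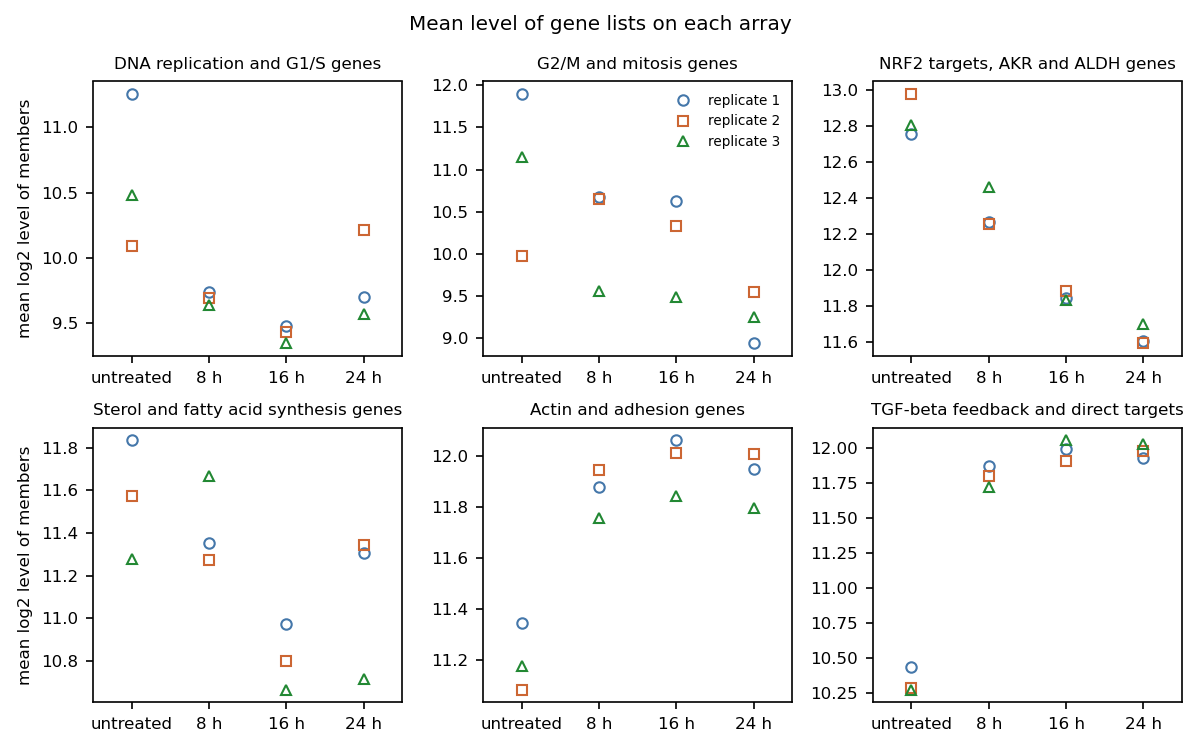
Mean log2 level over the tested members of 6 gene lists (vertical axes) on each array of the untreated, 8 h, 16 h and 24 h groups (horizontal axes), with 1 symbol per replicate. For G1/S genes the 3 arrays at 16 h (9.48, 9.43 and 9.34) lie together below the untreated arrays, whereas for G2/M genes untreated replicate 2 (9.98) lies within the range of the treated arrays.

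Among 37 CDK inhibitors, MYC network and p53 target genes, 12 rose (32.4%) and 5 fell (13.5%), beside 15.2% and 18.5% of all genes tested, with a median of 0.082. CDKN1A read 11.67, 12.57 and 11.68 on the untreated arrays and 13.06, 13.03 and 13.37 at 16 h. The inhibitor p21, which CDKN1A encodes, rose by 1.18 ± 0.22 and MXD1, an antagonist of MYC, by 1.34 ± 0.22. MYC read 12.64, 12.89 and 12.98 on the untreated arrays and 12.20, 12.16 and 11.78 at 16 h, and this driver of cell growth fell by 0.79 ± 0.18. TP53I3, a p53 target, rose by 2.07 ± 0.16 and GADD45B, a stress gene, by 1.61 ± 0.27, whereas the inhibitors CDKN2C and CDKN1B changed by -1.54 ± 0.37 and -1.25 ± 0.14.

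Of 42 interferon-stimulated and antigen presentation genes, 12 fell (28.6%) and 3 rose (7.1%), beside 18.5% and 15.2% of all genes. IRF7, GBP1 and SP100 were those that rose, and the median was -0.24. The rises numbered 6 with the experiment block and 7 without untreated replicate 3. IFIT1, an antiviral RNA-binding protein, fell by 2.01 ± 0.39. IFITM2 read 12.08, 12.89 and 12.51 on the untreated arrays and 10.92, 10.74 and 10.90 at 16 h. The membrane proteins IFITM2 and IFITM3, which block viral entry, fell by 1.64 ± 0.16 and 1.58 ± 0.18, and may share signal as close paralogs. IRF7, a factor that induces interferons, rose by 1.46 ± 0.14. Falls in 47 mitochondrial ribosome and respiratory chain genes were small, with 17 (36.2%) called, beside 18.5% of all genes. None were higher, and the median was -0.175. NDUFV1, a subunit of complex I, changed by -0.54 ± 0.14 and the ribosomal proteins MRPL17 and MRPS18B by -0.57 ± 0.12 and -0.54 ± 0.10. MRPL4 changed by -0.80 ± 0.13, but one of its other probe sets was called in the opposite direction at 0.58. With the mean of the probe sets of a gene, NDUFV1 and MRPL4 were not called (-0.24 and -0.22, adjusted p = 0.405 and 0.262). The count of falls was 7 when the arrays were centred on the median of the genes tested. With that centring 2307 of all 14771 genes were lower, a share like that of 7 in 47. The count was 9 without treated replicate 1 and 11 without untreated replicate 2.

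Of 38 tubulin, intermediate filament and tetraspanin genes, 14 rose (36.8%) and 10 fell (26.3%), beside 15.2% and 18.5% of all genes. The tubulins TUBA1A, TUBA4A and TUBB6 rose by 1.99 ± 0.34, 1.93 ± 0.13 and 1.53 ± 0.35. Tetraspanins, which organise membrane proteins, split. TSPAN8 read 12.76, 14.10 and 13.52 on the untreated arrays and 9.61, 9.42 and 10.15 at 16 h, a fall of 3.73 ± 0.38, and TSPAN7 fell by 2.28 ± 0.25. TSPAN2 read 7.48, 7.30 and 6.91 and 10.17, 10.03 and 8.06, a rise of 2.19 ± 0.53 with treated replicate 3 well below the other two, and neither of its other probe sets was called.

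The neighbouring times place these values on the course. Against 8 h, 793 genes differed at 16 h (5.37%), 294 higher (1.99%) and 499 lower (3.38%). Against 16 h, 32 genes differed at 24 h (0.217%), 10 higher (0.0677%) and 22 lower (0.149%), while 1193 genes had an unadjusted p under 0.05. The experiment block gave 72 genes for the second step. No gene was higher or lower at 16 h than at both neighbours (0 each way), 6 rose at both steps and 17 fell at both. Leaving out 24 h replicate 1 or 2 gave 7 or 8 calls for the second step, leaving out 24 h replicate 3 gave 132, and leaving out 16 h replicates 1, 2 or 3 gave 13, 13 or 16. Without 8 h replicate 3 the first step had 347 calls, and 466 or 488 without 16 h replicate 1 or 2.

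Between 8 and 16 h the largest rises among called genes without overlap were those of IGFL1 (3.67 ± 0.44), the oxidoreductase DHRS2 (2.80 ± 0.34), the actin-binding protein CORO2B (2.80 ± 0.25), IGFBP5 (2.71 ± 0.58) and IGFBP7 (2.62 ± 0.52). CORO2B read 6.92, 7.30 and 6.82 untreated, 8.86, 8.64 and 7.76 at 8 h and 11.31, 10.93 and 11.41 at 16 h, so that most of its rise over untreated cells came after 8 h. The largest falls were those of TSPAN8 (-2.92 ± 0.38), FGB (-2.57 ± 0.48), RARRES1 (-2.45 ± 0.45), DDC (-2.37 ± 0.26) and AGR2 (-2.31 ± 0.30). On the probe set used, AGR2 read 14.67, 14.51 and 14.72 at 8 h, close to its untreated levels, before it fell. These levels lie near the top of the scale, and the 8 h level of the other AGR2 probe set was not examined. Among sterol genes, 14 of 36 fell in this step, and among genes of the NRF2 list 18 of 41, whereas of the 28 feedback genes 2 rose and 0 fell. For G1/S genes the step held 1 rise and 0 falls. Over all genes tested, 1.99% rose and 3.38% fell in this step.

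**Figure D4:**
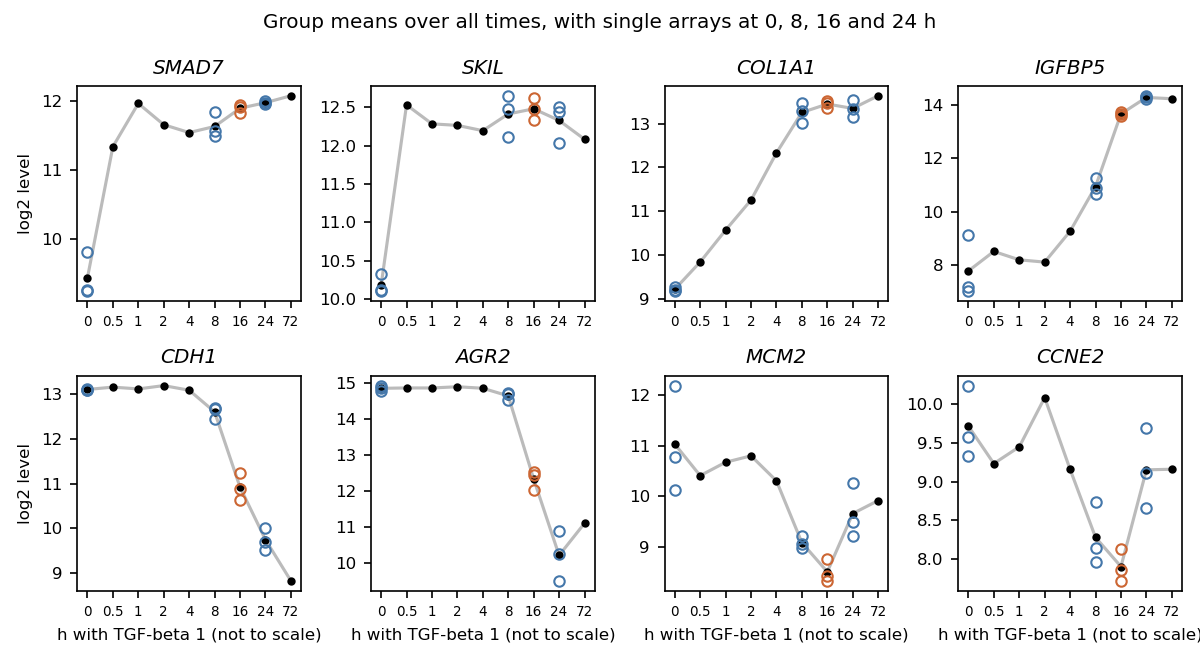
Log2 levels (vertical axes) of 8 genes against time with TGF-beta 1 (horizontal axis, not to scale, 0 for untreated cells), with filled points for group means and open circles for single arrays at 0, 8, 16 (orange) and 24 h. SMAD7 at 16 h (11.94, 11.84 and 11.92) is near its 1 h mean, and CCNE2 reads higher on every 24 h array than on the 16 h arrays. AGR2, near the top of the scale up to 8 h on the probe set used, drops after 8 h.

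After 16 h the 5 largest rises among called genes whose arrays did not overlap were those of the proteoglycan SPOCK1 (1.98 ± 0.33), IGFL2 (1.89 ± 0.35), LCE3D, a cornified envelope protein (1.82 ± 0.30), the potassium channel KCNMA1 (1.65 ± 0.29) and CCNE2 (1.25 ± 0.26). SPOCK1 read 8.04, 7.66 and 7.43 on the untreated arrays and 10.31, 10.28 and 9.24 at 16 h, followed by 12.19, 12.66 and 10.91 at 24 h. IGFL2 read 7.33, 7.29 and 7.91 untreated and 7.81, 7.90 and 7.15 at 16 h, which overlap (0.11 ± 0.35, adjusted p = 0.839), and 9.96, 9.46 and 9.11 at 24 h. CCNE2 moved back toward its untreated level, from 7.85, 8.13 and 7.71 at 16 h to 9.11, 9.69 and 8.66 at 24 h. The largest falls of this kind were in ALDH3A1 (-2.42 ± 0.26), AGR2 (-2.12 ± 0.30), the metalloproteinase MMP7 (-1.85 ± 0.22), CFB (-1.61 ± 0.32) and CP (-1.59 ± 0.30). MMP7 read 12.58, 13.38 and 13.11 untreated, 13.31, 13.17 and 13.36 at 8 h, 12.36, 12.28 and 12.03 at 16 h and 10.70, 9.79 and 10.65 at 24 h, a course that ended well below its untreated level. E-cadherin fell at both steps, by 1.68 from 8 to 16 h and by 1.17 from 16 to 24 h. The calls after 16 h for SPOCK1, IGFL2, LCE3D, KCNMA1, CCNE2, CFB and CP were each lost without 24 h replicate 1 (adjusted p of 0.059 to 0.157), 24 h replicate 2 (0.0958 to 0.236) or 16 h replicate 3 (0.0615 to 0.129). Those for CCNE2, CFB, KCNMA1, CP and IGFL2 were also lost without 16 h replicate 1 (0.0506 to 0.115), and those for CCNE2, CFB and KCNMA1 without 16 h replicate 2 (0.0641 to 0.149). With only the 16 and 24 h arrays in the fit limma called 0 genes (1053 at an unadjusted p under 0.05), and adjusted p for these rises and falls was 0.0684 to 0.323. With the mean of the probe sets of a gene, the changes of AGR2, CFB and KCNMA1 were -1.03, -0.58 and 0.50 (adjusted p = 0.223, 0.303 and 0.347), and CCNE2 was lost without the mean-variance trend (0.0575).

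**Figure D5:**
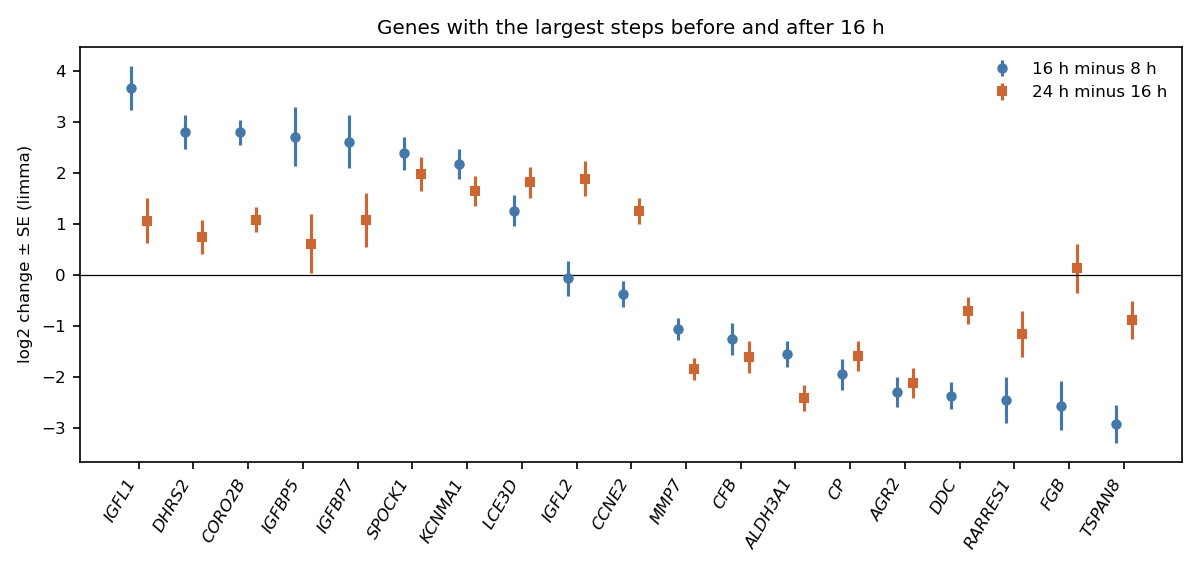
Log2 change ± SE from limma (vertical axis, n = 3 arrays per group) from 8 to 16 h (circles) and from 16 to 24 h (squares) for the genes with the largest changes in each step. IGFL1 rises by 3.67 in the first step, and SPOCK1 and AGR2 change in the same direction at both.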

How the data were processed

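RNA of 26 A549 cultures was hybridised to 1 array each. Per the file headers, the authors used the program readaffy to make trimmed means of perfect-match minus mismatch differences (20% trimmed, scale constant 1000), quantile-normalized them and deposited log10(max(x+50,0)+50). These log10 values were converted here to log2, with 1.23 percent of values at the floor. The authors' deposited table also holds p-values per time and fold changes as ratios, of which only the selection with p under 0.001 was counted here. A genome build is not given in the sources used here.

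Each of 19539 genes took 1 probe set, and 14771 above the array median on at least 2 arrays were tested with limma 3.58.1 in R 4.3.3 (lmFit, eBayes with trend) fitted to the 9 groups together (26 arrays, 17 residual degrees of freedom). Tests were two-sided, with Benjamini-Hochberg adjustment over all genes. The p-values measure the spread between arrays, pooled over groups, and the number of arrays limits the precision. All comparisons with untreated cells share the same 3 arrays. The fit was also run on simulated data with independent noise and no experiment effect, so that run does not cover effects shared by arrays of an experiment. The gene lists, the members named and the tests were chosen with earlier results of these data known. Named were the 12 largest rises and falls among called genes whose arrays did not overlap, up to 4 called members per list with the largest changes, 12 genes whatever their result, and up to 5 genes each way by the same rule for the steps from 8 h and to 24 h. Some genes that this rule names are not reported here. Further list members are given with their values, were chosen after these were seen and were not examined singly under the alternatives.

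Experiment numbers come from the labels, by which arrays of equal number share an experiment. For untreated replicates 2 and 3 the authors' array names left a doubt over these numbers. Correlations of deviations from the group means between untreated and 16 h arrays of equal number were 0.25, -0.102 and 0.033. They were 0.274, 0.107 and 0.395 between 8 and 16 h, and 0.238, 0.177 and 0.463 between 16 and 24 h. Untreated replicate 2 correlated at 0.342, 0.27 and 0.247 with replicate 3 at 8, 16 and 24 h. With replicate 2 at these times it correlated at -0.191, -0.102 and -0.245. For untreated replicate 3 and replicate 2 at these times the values were 0.063, -0.016 and 0.008. Promoter windows are RefSeq's (GRCh38.p14, first window listed per gene) and were matched by symbol for 98 of 137 named genes and 11375 genes tested.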

Additional observations from a re-analysis of the deposited data

How the results depend on the processing

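Of 157 named results, 132 kept their direction and their side of the threshold under every alternative run, and of 3140 values under alternatives 3043 did so, 88 lost the threshold, 8 gained it and 1 changed sign. The change of sign was IGFL2 at 16 h against untreated, -0.029 to 0.346 when 1 array was left out and -0.029 without treated replicate 2, a gene that was not called. For 16 h against untreated, leaving out 1 array gave 4213 to 4554 genes, every probe set tested singly gave 8340 and a 2-fold minimum 1485. For 16 h against 8 h, leaving out 1 array gave 347 to 636, a fit of the groups in question alone 437, a threshold of 0.01 gave 321 and a 2-fold minimum 210. For 24 h against 16 h the same settings gave 7 to 132, 0 (with 1053 genes at an unadjusted p under 0.05), 8 and 19. With the experiment number as a replicate block, the counts were 5679, 1189 and 72, and it changed no other call of a named gene than those of SNAI1 and ZEB1. The authors' array names left a doubt over the numbers of untreated replicates 2 and 3, and a block with these exchanged, added after seeing the data, gave 5926, 1362 and 130. Fewer samples in the fit mean fewer residual degrees of freedom, and for the other differences the cause was not tested. The share of higher genes was 45.1% and moved to 49.1% after a second quantile normalization and 52.8% after centring on the median. Probe sets near zero signal, such as those of the weakest genes, give only understated folds. Of 155 further probe sets of named genes, 131 were called in the same direction, 23 were not called and 1 was called in the opposite direction. The report names those that were not called except for IGFBP7, FGA, SKIL, FN1, ETS1, THBS1, KCNMA1, MUC1 and MXD1. Each change reported for a gene is that of 1 probe set. Others called in the same direction could be smaller, as for IGFBP5, or larger, as for AGR2. MELK and NCAPH also missed the threshold with eBayes without trend (adjusted p = 0.0574 and 0.0611) and with robust eBayes.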
